A study of Mus musculus with 6 samples.

Results

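CD8 T cells of the liver were chosen by measured transcripts of marker genes in the single-cell RNA sequencing data. A cell was taken when it had at least 1 unique molecular identifier (UMI, a tag that counts RNA molecules) of Cd3d, Cd3e or Cd3g and at least 1 of Cd8a or Cd8b1. It also had to have none of Ncr1 (NK cells), Cd4 (helper T cells), Clec4f and C1qa (Kupffer cells and macrophages), Cd79a (B cells) or Siglech (plasmacytoid dendritic cells). These rules gave 192 of 11610 cells, of which 51 came from wild-type and 141 from SIRT7-/- mice. The 11 genes of the rule chose the cells, so their levels describe the choice and were not used as findings.

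CD8 T cells recognize peptides on MHC class I molecules with a T cell receptor, the CD3 signaling chains and the co-receptor CD8, and kill their targets with granzymes and perforin. The liver holds many antigen-experienced CD8 T cells, part of which stay in the tissue and carry the chemokine receptor CXCR6, while naive and central memory cells circulate through lymph nodes with the help of the chemokine receptor CCR7. CD8 T cells divide after they meet antigen and cytokines, and they collect in the liver in steatohepatitis.

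The livers came from 3 wild-type (WT) and 3 SIRT7-/- mice of 5 to 6 months of age. SIRT7 is a histone deacetylase, the SIRT7-/- mice lack it in every cell, and the study used them as a model that develops steatohepatitis on a chow diet. For each mouse a library was made on the 10x Genomics Chromium platform from a mix of 3000 hepatocytes and 3000 nonparenchymal cells, so the share of T cells among all cells depends on that mix. A level below is the mean over the CD8 T cells of a mouse in counts per 10000 UMIs of a cell (CP10K).

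The number of CD8 T cells differed widely among the libraries. WT mice 1, 2 and 3 gave 18, 15 and 18 cells, and SIRT7-/- mice 1, 2 and 3 gave 39, 97 and 5. The libraries of SIRT7-/- mice also stood apart in size, with 5609 cells in mouse 1 and 552 in mouse 3, against 933 to 1243 in WT mice. Median UMIs per CD8 T cell were 2444, 2567 and 2073.5 in WT mice and 1284, 2143 and 3914 in SIRT7-/- mice. The 5 cells of SIRT7-/- mouse 3 were too few for the fit across genes, which needed 10 cells per mouse, so that fit compared 3 WT with 2 SIRT7-/- mice, and the values of mouse 3 are given beside it. Libraries shared 13 cell barcodes, and 0 of these were on CD8 T cells.

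Several markers that the rule did not use were detected in these cells. Trac, Trbc1 or Trbc2, the constant parts of the T cell receptor, had a UMI in 178 of 192 cells (92.7%). Ccl5, a chemokine of memory and effector CD8 T cells, had 116, 108 and 54.8 CP10K in WT mice and 81.5, 80.2 and 40 in SIRT7-/- mice, which overlap. Among genes of at least 2 CP10K outside the rule, Ccl5 had the highest ratio of its mean in CD8 T cells to its mean in all other cells, 13.8, followed by Cd160 (9.58), Trac (9.41), the adaptor Lat (7.50), Cd7 (7.18) and the transcription factor Bcl11b (6.68). Granzyme B (Gzmb, 6.48) and Nkg7, a protein of cytotoxic granules (6.07), were also among the leading 15 genes. NK cells (Ncr1 without Cd3e or CD8 transcripts) held Ccl5 at 64.3 to 151 CP10K, so Ccl5 does not set CD8 T cells apart from them. Ratios such as these describe the cells chosen and carry no test.

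The border of the rule was thin, since 73 of the 192 cells had a single UMI of Cd8a and Cd8b1 together and 17 had a single UMI of CD3 and of CD8. Cells had a median of 2 CD8 and 4 CD3 UMIs. Cd8a alone was seen in 48 cells, Cd8b1 alone in 59 and both in 85. Another 95 cells with CD3 and CD8 transcripts were left out, 48 of which held C1qa, 36 Clec4f and 22 Cd4. Just outside lay 1278 CD3 cells with no CD8 UMI, called T cells without CD8 transcripts here, which can include CD8 T cells whose CD8 RNA was missed.

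Transcripts of other cell types were present in the CD8 T cells and differed among the mice. Of the dendritic cell list, all 11 genes were in the table, and their summed level was 41.0, 1.11 and 101 CP10K in WT mice and 11.8, 38.7 and 2.21 in SIRT7-/- mice. Its most abundant gene was Cd74, the MHC class II invariant chain, while the defining Xcr1 was at 0.798 CP10K in WT mouse 3, at 0.140 in SIRT7-/- mouse 2 and at 0 in the other mice. At least 3 UMIs of H2-Aa, H2-Ab1, Cd74 and Cst3 together were held by 26 cells, of which 5 belonged to the 85 with both CD8 genes. The gamma-delta T cell list summed to at most 1.43 CP10K, the NKT and MAIT list to at most 0.314, and 7 of 7 basophil and mast cell genes were at 0 in every mouse.

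Sirt7 itself was measured first, as a check of the labels. In CD8 T cells its level was 1.13, 0.875 and 0.249 CP10K in WT mice, from 6, 4 and 2 UMIs. It was 0.0, 0.146 and 0.0 in SIRT7-/- mice, from 0, 4 and 0 UMIs. SIRT7-/- mice were lower than WT mice with no overlap, and the exact two-sided permutation test over the 5 mice gave p = 0.2, the smallest p that 3 against 2 allows. Over all cells Sirt7 had 0.718, 0.512 and 0.546 CP10K in WT and 0.1, 0.0814 and 0.139 in SIRT7-/- mice (exact permutation p = 0.1, the smallest for 3 against 3). Where the deleted part of the gene lies relative to these 3′ reads is not given in the sources used here.

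The first comparison asked whether SIRT7-/- livers hold a different share of CD8 T cells. Their share of all cells was 1.45%, 1.61% and 1.65% in WT mice and 0.695%, 4.45% and 0.906% in SIRT7-/- mice. SIRT7-/- mouse 2 lay above every WT mouse (exact Clopper-Pearson 95% interval 3.62% to 5.4%), and mice 1 and 3 lay below. The means were 1.57% ± 0.105 (SD, n = 3) and 2.02% ± 2.11 (SD, n = 3), and the exact permutation test gave p = 1.0. Without SIRT7-/- mouse 2 the difference turned from 0.451 to -0.767 percentage points. Hepatocytes were defined by 10 or more UMIs of Alb and none of Ptprc or of the genes of the rule. They were 703 of 1243, 383 of 933 and 10 of 1094 cells in WT mice. In SIRT7-/- mice they were 118 of 5609, 13 of 2179 and 301 of 552 cells, so the mix loaded differed from the mix recovered. The definition rests on Alb, whose level was lowest in SIRT7-/- mouse 2 in every gate.

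The share was also taken among CD3 cells, those with a CD3 transcript and none of Ncr1, Clec4f, C1qa, Cd79a or Siglech. CD8 T cells were 9.09%, 10.7% and 7.86% of CD3 cells in WT mice. In SIRT7-/- mice they were 9.09%, 20.6% and 21.7%, the last of only 23 cells. The means were 9.22% ± 1.43 (SD, n = 3) and 17.2% ± 7.01 (SD, n = 3), and the difference of 7.93 percentage points did not pass the exact permutation test (p = 0.3), with SIRT7-/- mouse 1 within the range of the WT mice. A larger share in SIRT7-/- livers was therefore not shown. Fewer CD8 T cells in a library and less CD8 RNA per cell cannot be told apart by this rule.

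The second comparison asked which genes differ between the genotypes within CD8 T cells. Of 3062 genes whose mean over the 5 mice reached 0.5 CP10K, 17 passed limma's test with Benjamini-Hochberg adjustment at 0.05, which is 0.555% of those tested. In SIRT7-/- mice 7 were higher (0.229%) and 10 lower (0.327%). The 7 that rose were Hmgb2, Stmn1, Ube2c, Birc5, Ifi27l2a, BC018473 and S100a9, and 4 of these belong to the machinery of dividing cells. The 10 that fell were Sult2a1, Bhmt, Serpina1c, Car3, Mup9, Mt1, Sult3a2, Aldh6a1, Cyp2c50 and Igfbp4, each of which had a higher mean in hepatocytes than in CD8 T cells, by 2.4-fold (Aldh6a1) to 5.67-fold (Bhmt). At an unadjusted p under 0.05 there were 170 genes, 69 higher and 101 lower. The calls depended on single WT libraries, since without WT mouse 1 there were 0 calls (175 genes at an unadjusted p under 0.05) and without WT mouse 2 there was 1, which was not among the 17. Leaving out SIRT7-/- mouse 2 gave 5 calls, 3 of them among the 17, and leaving out SIRT7-/- mouse 1 gave 64, 12 of them among the 17. In both cases the remaining SIRT7-/- mouse was alone in its group and assumed to vary like the WT mice.

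**Figure D1:**
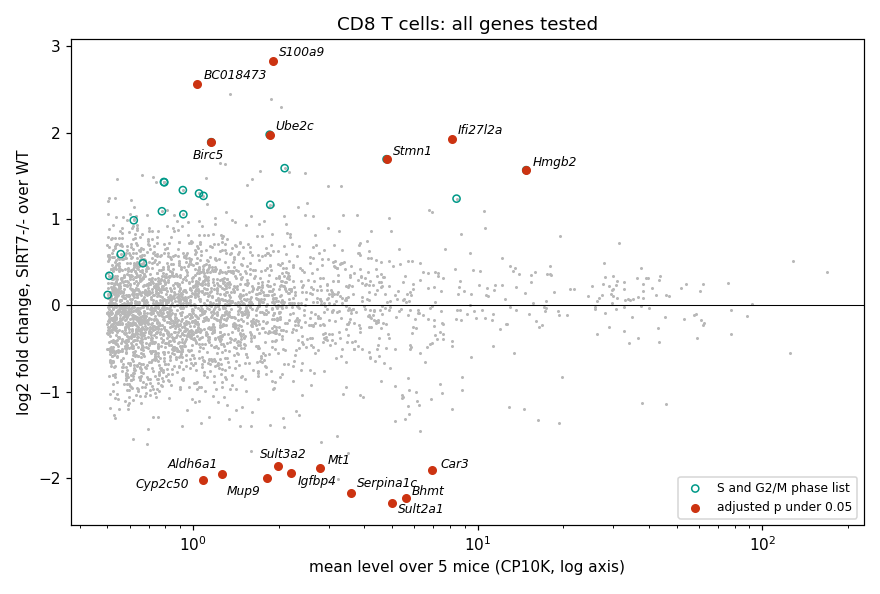
Each point is a gene tested in CD8 T cells, with its mean level over 5 mice on a log axis (CP10K) and its log2 fold change, SIRT7-/- over WT. Red points are the 17 genes past the threshold and green rings the 19 tested genes of the S and G2/M phase list, all of which lie above 0.

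Of the genes of cell division 4 rose in the CD8 T cells of SIRT7-/- mice 1 and 2, and they are given first. Hmgb2, a chromatin protein abundant in dividing lymphocytes, had 7.05, 7.34 and 9.55 CP10K in WT mice, 19.2 and 31.0 in SIRT7-/- mice 1 and 2, and 2.50 in the 5 cells of mouse 3. Mice 1 and 2 were above every WT mouse, and mouse 3 was below. The log2 fold change was 1.57 ± 0.278 (SE), a 3.14-fold higher mean, with a limma adjusted p of 0.00463.

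Stmn1, a protein that takes apart microtubules, had 1.85, 1.89 and 3.21 CP10K in WT mice, 7.21 and 9.77 in SIRT7-/- mice 1 and 2, and 0.846 in mouse 3. Its log2 fold change was 1.69 ± 0.377 (SE, limma adjusted p = 0.0256). Again the groups of the fit did not overlap, while mouse 3 was lowest of all. Ube2c, a ubiquitin-conjugating enzyme that drives the exit from mitosis, had 0.252, 0.216 and 1.61 CP10K in WT mice, 3.66 and 3.56 in SIRT7-/- mice 1 and 2, and 0.0 in mouse 3. Birc5, the survivin subunit of the chromosomal passenger complex, had 0.469, 0.433 and 0.0 CP10K in WT mice, 1.67 and 3.23 in SIRT7-/- mice 1 and 2, and 0.423 in mouse 3. Both rose, by 1.98 ± 0.462 and 1.89 ± 0.460 on the log2 scale (SE, limma adjusted p of 0.0381 and 0.0491), the latter just past the threshold.

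With SIRT7-/- mouse 3 included, an alternative chosen after seeing the data, none of the 4 passed. The log2 fold changes were then 0.55 for Hmgb2, 0.78 for Stmn1, 0.96 for Ube2c and 1.35 for Birc5, with limma adjusted p of 0.964, 0.915, 0.915 and 0.458. None of the 4 passed either with UMIs summed per mouse (limma adjusted p from 0.139 to 0.365), with the mean of ln values (0.143 to 0.229), without SIRT7-/- mouse 2 (0.179 to 0.997), or without WT mouse 1 or WT mouse 2, while all 4 kept their direction.

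The list of S and G2/M phase genes held 25 genes, of which 19 passed the filter on low values. Of these 4 rose (0.229% of all genes tested did), 0 fell and 15 did not pass the adjusted test. The median log2 fold change was 1.27 beside -0.036 over all genes tested. It was 0.80 with SIRT7-/- mouse 3 included and 0.47 with the mean of ln values. Because a low gene can pass the filter through the group where it is high, these medians are a description. Mki67, the proliferation antigen Ki-67, had 0.436, 0.325 and 0.806 CP10K in WT mice, 1.59 and 2.29 in SIRT7-/- mice 1 and 2 and 0.141 in mouse 3 (limma adjusted p = 0.347). Tubb5, a beta-tubulin, had 4.98, 5.54 and 5.21 in WT and 10.8, 15.6 and 10.2 in SIRT7-/- mice (limma adjusted p = 0.0709), with all 3 SIRT7-/- mice above all WT mice. The summed level of the 25 genes was 19.4, 22.7 and 30.8 CP10K in WT mice and 60.1, 96.9 and 30 in SIRT7-/- mice.

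Transcripts of monocytes were summed in the same mice. The 8 genes of the monocyte list summed to 3.38, 5.53 and 5.37 CP10K in WT mice and 13, 14 and 3.6 in SIRT7-/- mice, so that mice 1 and 2 were above every WT mouse and mouse 3 was not. Of 5 tested 0 passed, beside 0.555% of all genes, and the median log2 fold change was 1.4. At an unadjusted limma p under 0.05 there were 2 of the 5 higher, beside 69 of all 3062 genes. Plac8, the most abundant, had 0.745, 1.86 and 0.587 CP10K in WT and 3.24, 4.41 and 1.12 in SIRT7-/- mice (limma adjusted p = 0.139), while Chil3 was at 0 in every mouse. The part of monocyte RNA in the cell division genes was not tested.

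**Figure D2:**
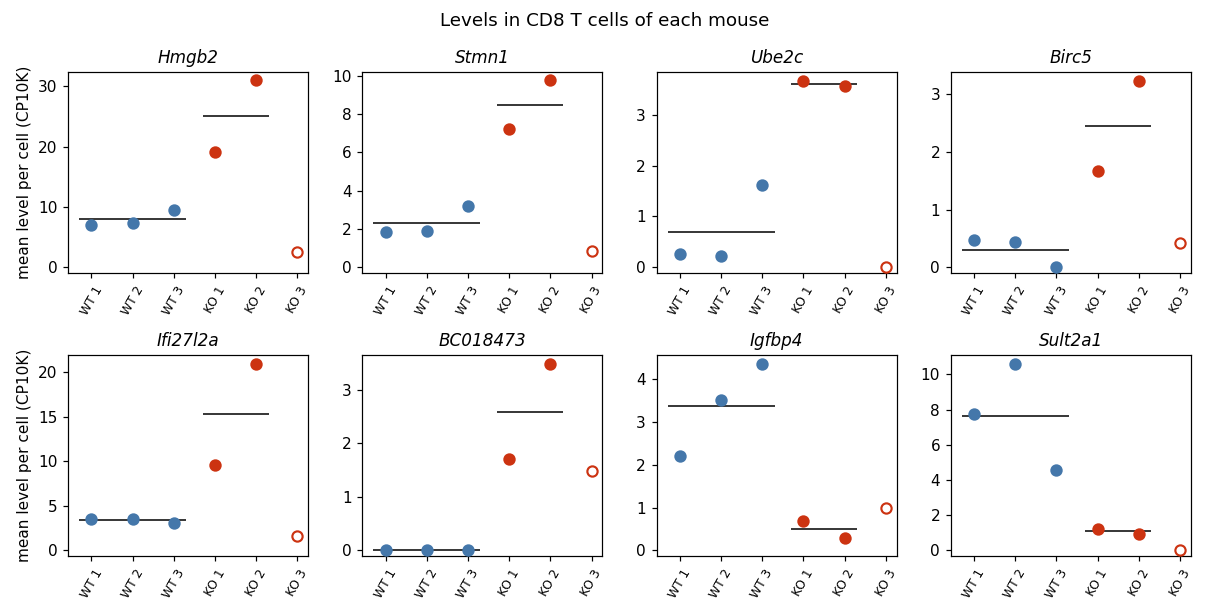
Mean level per CD8 T cell (CP10K) of 8 genes past the threshold, with a point for each mouse (KO, SIRT7-/-) and a line at the mean of the mice in the fit. The open point is SIRT7-/- mouse 3, with 5 cells, which was not in the fit and lies at or below the WT mice for Hmgb2, Stmn1, Ube2c and Ifi27l2a.

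Promoters of 3 of these 4 genes are shown because the genes rose together, and that of Stmn1 is not shown. The sequences are from RefSeq on GRCm38, the 100 bases before the annotated start, on the strand of the gene. Capitals mark the CCAAT box (CCAAT) and the cell cycle homology region or CHR (TTTGAA), 2 elements known from promoters of late cell cycle genes, on either strand.
Hmgb2, chr8:57511743-57511842, plus strand: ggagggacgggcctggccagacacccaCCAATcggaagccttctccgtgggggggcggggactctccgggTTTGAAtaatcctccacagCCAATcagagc
Ube2c, chr2:164769829-164769928, plus strand: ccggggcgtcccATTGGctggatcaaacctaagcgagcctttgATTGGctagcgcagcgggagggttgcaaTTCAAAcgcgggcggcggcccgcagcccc
Birc5, chr11:117849137-117849236, plus strand: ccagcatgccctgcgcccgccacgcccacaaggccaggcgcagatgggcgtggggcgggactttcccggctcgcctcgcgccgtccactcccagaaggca
Hmgb2 held 2 CCAAT boxes and a CHR 30 bases before the start, and Ube2c held 2 CCAAT boxes and a CHR 29 bases before the start, all on the other strand. The window of Birc5 held neither run of letters. Of 32851 promoter windows of this length, 18.9% held CCAAT on either strand, 5.77% TTTGAA and 1.06% both. Of the 25 genes of the list, 22 had a window in the table, of which 16 held CCAAT, 6 held TTTGAA and 4 held both. A match of letters is a description and does not show that a factor binds there.

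The share of cells with such transcripts was then counted, after the levels had been seen. To make cells comparable in depth, each CD8 T cell was thinned at random to 1000 UMIs and the 19 shallower cells were left out, 4 from WT mouse 3, 7 from SIRT7-/- mouse 1 and 8 from mouse 2. A UMI of Mki67, Top2a (topoisomerase II alpha, which untangles replicated DNA) or Birc5 was found in 2 of 18, 1 of 15 and 2 of 14 cells of WT mice. In SIRT7-/- mice it was found in 10 of 32, 34 of 89 and 0 of 5 cells. That is 10.7% ± 3.83 (SD, n = 3) in WT mice and 31.2% and 38.2% in SIRT7-/- mice 1 and 2. The difference was 24 percentage points, given with no test because the 3 genes were picked for their levels in these mice. With mouse 3 included it was 12.5 points, and 0 of 5 cells in that mouse allows a share of up to 52.2% (exact 95% interval). Without thinning the share was 16.7%, 6.67% and 11.1% in WT mice and 25.6%, 48.5% and 40% in SIRT7-/- mice, so that 2 of the 5 cells of mouse 3, the deepest on median, held such a UMI. In hepatocytes of all mice, thinned alike, the share was 1.4% of 1429 cells at a median of 2168 UMIs before thinning, against 28.3% of 173 CD8 T cells (median 2324 UMIs). By mouse the hepatocyte share was 0.912%, 0.575% and 10.0% in WT and 0.0%, 7.69% and 3.48% in SIRT7-/- mice, from only 10 hepatocytes in WT mouse 3 and 13 in SIRT7-/- mouse 2. In SIRT7-/- mouse 3, with 5 CD8 T cells, the order of the gates turned with thinning, since without it the share was 40% in CD8 T cells and 7.97% in hepatocytes.

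The same cells were counted among T cells without CD8 transcripts. Their share was 0.559%, 4.88% and 8.22% in WT mice and 14.3%, 30.9% and 0.0% in SIRT7-/- mice. The order of the mice was thus similar, with SIRT7-/- mouse 2 highest and mouse 3 at 0 in both gates after thinning. Without thinning it was 1.12%, 8.0% and 7.69% in WT and 13.2%, 32.9% and 5.88% in SIRT7-/- mice. The excess of the CD8 T cells over T cells without CD8 transcripts was 6.14 points ± 4.38 (SD, n = 3) in WT mice. In SIRT7-/- mice 1 and 2 it was 12.1 points ± 6.81 (SD, n = 2), a difference of 6.01 points. No test is given, since the 3 genes were picked for their levels in these mice. An exact permutation test of 3 against 2 mice could also give no p below 0.2. This share therefore cannot decide whether a response is particular to CD8 T cells.

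**Figure D3:**
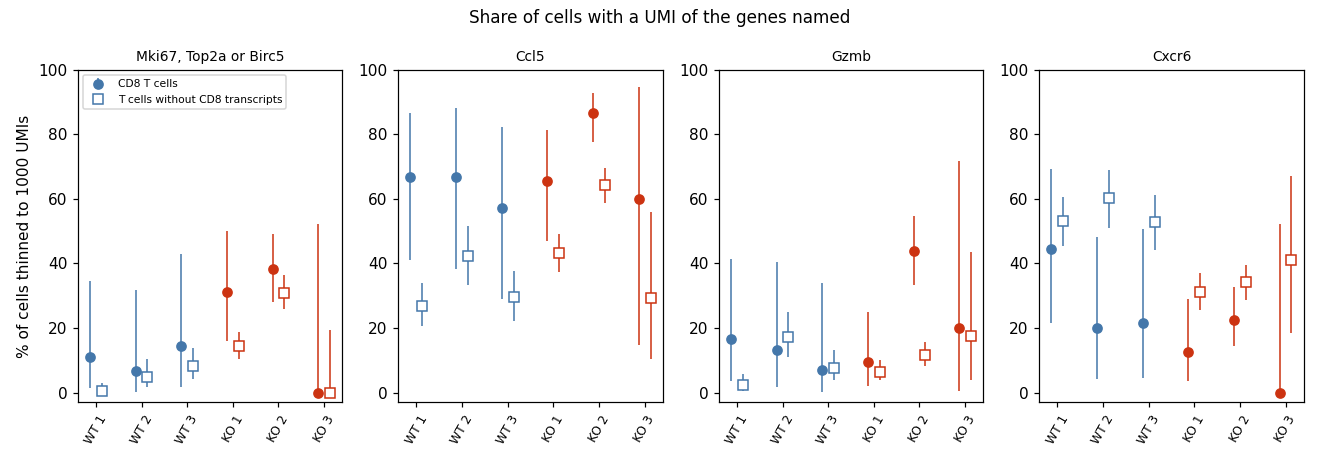
Percent of cells with a UMI of the genes named above each panel, after thinning to 1000 UMIs, for CD8 T cells (filled circles) and T cells without CD8 transcripts (open squares) of each mouse. WT is blue and SIRT7-/- (KO) red, and bars are exact 95% binomial intervals, which cover counting error only. In CD8 T cells the Mki67, Top2a or Birc5 share was 6.67% to 14.3% in WT mice and 31.2% and 38.2% in SIRT7-/- mice 1 and 2.

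Within the mouse with the most cells, SIRT7-/- mouse 2, the 34 thinned cells with a UMI of these 3 genes could be set beside the 55 without. Ccl5 was found in 88.2% and 85.5% of them, and Gzmb in 38.2% and 47.3%. Nkg7 was found in 55.9% against 80.0% and Cxcr6 in 11.8% against 29.1%. Hmgb2 was found in all 34 and in 47.3% of the others, and Igfbp4 in 0.0% and 1.82%. At least 3 UMIs of H2-Aa, H2-Ab1, Cd74 and Cst3 together were about as frequent in them, 11.8% and 12.7%. Cells with and without a UMI of these 3 genes thus both carried Ccl5 and Gzmb, as a description of a single mouse.

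Ifi27l2a, an interferon-inducible protein of the mitochondrial membrane, was the gene of the interferon list that rose. It had 3.51, 3.49 and 3.12 CP10K in WT mice, 9.56 and 20.9 in SIRT7-/- mice 1 and 2, and 1.6 in mouse 3. The mean was 4.52-fold higher in SIRT7-/- mice 1 and 2 and the log2 fold change 1.93 ± 0.353 (SE, limma adjusted p = 0.00463). With mouse 3 included it was 0.99 (limma adjusted p = 0.915), and without SIRT7-/- mouse 2 it was 1.38 (limma adjusted p = 0.384). The 3 WT mice were close to each other, and mouse 3 lay below them. In T cells without CD8 transcripts Ifi27l2a had 3.76, 4.46 and 5.82 CP10K in WT and 6.36, 27.4 and 11.3 in SIRT7-/- mice, all 3 above WT, though its limma adjusted p there was 0.465.

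No other gene of the interferon list passed, where the share over all genes (0.555%) gives few calls in a list of this size. Of 33 genes, 15 were tested and the median log2 fold change was 0.20, or 0.10 without WT mouse 3 and 0.48 without SIRT7-/- mouse 1. Bst2 (tetherin), a membrane protein that holds back budding viruses, had 0.723, 0.910 and 0.901 CP10K in WT and 2.24, 2.09 and 3.36 in SIRT7-/- mice (limma adjusted p = 0.680). Isg15, a ubiquitin-like protein that interferon induces, had 0.513, 0.270 and 0.181 CP10K in WT mice and 0.340, 1.24 and 0.0 in SIRT7-/- mice. The whole list summed to 25.1, 26.0 and 21.6 CP10K in WT and 29.0, 55.3 and 18.4 in SIRT7-/- mice, with mouse 2 highest and mouse 3 lowest. Ifi27l2a was thus the only gene of its list past the threshold, which with 15 tested says little about the others.

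BC018473, a long noncoding RNA gene on chr11:116752167-116757883 (GRCm38), had 0 UMIs in every WT mouse. Its level was 1.70, 3.48 and 1.49 CP10K in SIRT7-/- mice 1, 2 and 3, and 61 SIRT7-/- cells held it. It passed with a limma adjusted p of 0.00704, which was 0.744 with a pseudocount of 0.1, 0.139 with UMIs summed per mouse and 0.315 with limma voom. Over the 159068 UMIs of the WT CD8 T cells a count of 0 allows up to 0.189 per 10000 (3 counts over the group), so the summed UMIs of SIRT7-/- mice 1 and 2 were at least 13.8-fold higher. That bound rests mostly on mouse 2, with 74 of the UMIs, and was at least 7.17-fold for mouse 1 alone and at least 15.5-fold for mouse 2 alone. In T cells without CD8 transcripts it was 0.0 in all WT mice too and 0.752, 1.95 and 0.826 in SIRT7-/- mice, and in NK cells (Ncr1 without Cd3e or CD8 transcripts) 0.0 in all WT mice and 0.940, 3.23 and 1.91. All 3 gates thus separated the genotypes at this gene. BC018473 lies 3.86 Mb from Sirt7 and Birc5 2.76 Mb from Sirt7, on the same chromosome, which is given as a position only.

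S100a9, a calcium-binding protein of neutrophils, also passed (limma adjusted p = 0.0375), but the adjusted p was 0.573 and 0.497 with pseudocounts of 0.1 and 1 and 0.871 with limma voom. It was 0 in all WT mice, 8.69 CP10K in SIRT7-/- mouse 1 from 81 UMIs in 8 cells, 0.875 in mouse 2 and 0.0 in mouse 3. The 39 UMIs of mouse 2 lay in 3 cells. Counts gathered in so few cells give no bound on the fold over WT mice from summed UMIs. The whole neutrophil list of 10 genes summed to 0.455, 0.0 and 0.215 CP10K in WT CD8 T cells and 16.1, 1.93 and 0.0 in SIRT7-/- ones. Its defining members Ly6g, Camp, Ngp and Ltf were at 0 in every mouse. In T cells without CD8 transcripts S100a9 was 12.5, 6.66 and 6.02 CP10K in WT and 63.9, 6.77 and 100.2 in SIRT7-/- mice. The part of neutrophil RNA in this call was not tested.

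Of the genes of naive and central memory T cells 1 passed. Igfbp4, a binding protein of insulin-like growth factors that naive T cells express, fell. It had 2.21, 3.52 and 4.35 CP10K in WT mice and 0.689, 0.300 and 0.986 in SIRT7-/- mice, so that all 3 SIRT7-/- mice were below every WT mouse. The log2 fold change was -1.94 ± 0.421 (SE), a 6.79-fold lower mean in mice 1 and 2, with a limma adjusted p of 0.0208. Igfbp4 kept its call in 14 of 21 alternatives. It did not pass with UMIs summed per mouse (limma adjusted p = 0.139), with the mean of ln values (0.0983) or with a filter at 2 CP10K (0.341). Without WT mouse 1, 2 or 3 it did not pass either (limma adjusted p of 0.1, 0.193 and 0.0587). The call was also lost without SIRT7-/- mouse 2, where the log2 fold change was -1.66. Hepatocytes contain Igfbp4 as well, at 7.62 to 8.33 CP10K in WT and 5.64 to 6.32 in SIRT7-/- mice. In T cells without CD8 transcripts it was 2.24, 1.90 and 3.20 in WT and 1.76, 0.605 and 1.96 in SIRT7-/- mice, which overlap. The part of hepatocyte RNA in the call was not tested.

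Of the 16 genes of the naive and central memory list 13 were tested, 1 fell (0.327% of all genes fell), 0 rose, and the median log2 fold change was -0.46 beside -0.036 over all genes. Lef1, a transcription factor of naive cells, had 2.03, 0.625 and 1.14 CP10K in WT and 0.648, 0.468 and 0.0 in SIRT7-/- mice (limma adjusted p = 0.942). Klf2, which keeps up the expression of homing receptors, had 3.23, 7.39 and 2.54 in WT and 2.72, 2.56 and 1.88 in SIRT7-/- mice (limma adjusted p = 0.984). Il7r, the receptor of the survival cytokine IL-7, had 4.78, 2.38 and 5.05 against 6.98, 2.57 and 0.981. Lef1, Klf2 and Il7r overlapped between the genotypes. Of the 13 tested, 4 did not overlap in the mice of the fit, Igfbp4 among them, beside 19.9% of all genes tested. Ly6c2, a surface protein that activated and memory CD8 T cells and monocytes share, ran the other way, with 0.0, 1.61 and 0.0 CP10K in WT and 2.72, 5.09 and 0.0 in SIRT7-/- mice (limma adjusted p = 0.0599).

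Most CD8 T cells held Ccl5. After thinning, cells with a UMI of Ccl5, counted after the levels had been seen, were 66.7%, 66.7% and 57.1% in WT and 65.6%, 86.5% and 60% in SIRT7-/- mice, against 0.350% of hepatocytes. Without thinning they were 66.7%, 66.7% and 61.1% in WT and 66.7%, 95.9% and 60% in SIRT7-/- mice. The genotypes overlapped in both. Cells with a UMI of Gzmb, counted likewise, were 16.7%, 13.3% and 7.14% in WT and 9.38%, 43.8% and 20% in SIRT7-/- mice, where mouse 2 stood above all others, and in 0.0% of hepatocytes. NK cells, thinned alike, held Ccl5 in 91.0% and Gzmb in 30.7% of 244 cells, against 75.7% and 28.3% of 173 CD8 T cells, so that neither gene sets CD8 T cells apart from NK cells. Without thinning the Gzmb share of CD8 T cells was 22.2%, 26.7% and 22.2% in WT and 12.8%, 60.8% and 20% in SIRT7-/- mice. The receptor Cxcr6 was found after thinning in 44.4%, 20% and 21.4% of WT cells and in 12.5%, 22.5% and 0.0% of SIRT7-/- cells (exact permutation p = 0.6 without mouse 3), and it did not separate the genotypes. Without thinning it was 61.1%, 40% and 22.2% in WT and 25.6%, 41.2% and 0.0% in SIRT7-/- mice. Cxcr6 was less frequent in CD8 T cells than in T cells without CD8 transcripts, where it reached 53.1%, 60.2% and 52.7% in WT and 31.1%, 34.1% and 41.2% in SIRT7-/- mice, as a description of gates that the CD8 genes defined.

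Of the 17 genes with which CD8 T cells kill, 11 were tested and 0 passed, where the share over all genes (0.555%) gives few calls in a list of this size, and the median log2 fold change was 0.24, which became -0.37 without SIRT7-/- mouse 2. Gzmb had 2.61, 1.84 and 1.70 CP10K in WT mice and 1.46, 8.06 and 3.33 in SIRT7-/- mice (limma adjusted p = 0.942). SIRT7-/- mouse 2 was highest for Gzmb and mouse 1 lowest. Gzma, another granzyme, was uneven within the groups, with 1.46, 5.02 and 0.0 in WT and 0.212, 5.95 and 0.0 in SIRT7-/- mice. Nkg7 had 8.90, 15.7 and 7.49 in WT and 8.60, 16.9 and 13.2 in SIRT7-/- mice. Perforin (Prf1) stayed below the filter, at 0.408 to 0.942 in WT and 0.173 to 1.51 in SIRT7-/- mice.

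Of genes of tissue residency 8 were tested and of exhaustion 3, and 0 passed, again beside 0.555% of all genes. Itga1 (CD49a), an integrin of resident T cells, had 1.18, 0.684 and 1.08 CP10K in WT and 1.66, 1.59 and 0.0 in SIRT7-/- mice (limma adjusted p = 0.983). Itgb1, the integrin chain that pairs with it, had 0.295, 2.31 and 2.18 in WT and 1.74, 5.82 and 0.475 in SIRT7-/- mice (limma adjusted p = 0.932). The median log2 fold change of the residency genes was 0.17. It was -0.02 without WT mouse 1, 0.37 without SIRT7-/- mouse 1 and -0.11 without SIRT7-/- mouse 2. Cd160, the most abundant gene of the exhaustion and inhibitory receptor list, had 2.61, 2.98 and 1.23 CP10K in WT and 0.850, 2.95 and 6.89 in SIRT7-/- mice (limma adjusted p = 0.998), and the median log2 fold change of its 3 tested genes was -0.30. Pdcd1 (PD-1) was at most 0.447 CP10K in any mouse, Lag3 at most 0.511 and Ctla4 at most 0.213, seen in 7, 3 and 2 cells. Tox, a transcription factor tied to chronic stimulation, had 1.0, 0.525 and 1.68 in WT and 0.239, 0.235 and 1.78 in SIRT7-/- mice (limma adjusted p = 0.776). Pdcd1, Lag3 and Ctla4 were thus near the level of single molecules at this depth, where 1 UMI in the cells of a mouse is worth 0.0481 to 0.511 CP10K.

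The other 9 genes that fell were compared with the same genes in other gates. Sult2a1, a sulfotransferase of the liver, had 7.72, 10.6 and 4.54 CP10K in WT CD8 T cells and 1.24, 0.929 and 0.0 in SIRT7-/- ones (log2 fold change -2.29 ± 0.393, SE, limma adjusted p = 0.00463). Bhmt, an enzyme of methionine metabolism, had 12.1, 7.01 and 5.83 in WT and 2.39, 0.613 and 3.81 in SIRT7-/- mice. Car3, a carbonic anhydrase, had 11.1, 9.02 and 9.61 in WT and 3.61, 1.37 and 0.616 in SIRT7-/- mice. For each of these all 3 SIRT7-/- mice were below all WT mice.

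These 9 genes were also detected in the other lymphocytes of the same mouse. They summed to 52.9, 48.1 and 34.1 CP10K in WT CD8 T cells, to 50.7, 57.4 and 28.9 in WT T cells without CD8 transcripts, and to 56.8, 56.1 and 32.7 in WT NK cells. In SIRT7-/- mice they summed to 10.6, 4.53 and 5.92 in CD8 T cells, 17.7, 6.24 and 15 in T cells without CD8 transcripts, and 16.7, 6.49 and 10.7 in NK cells. Hepatocytes held them at 173, 178 and 109 in WT and 59.2, 75.6 and 66.0 in SIRT7-/- mice. CD8 T cells were the lowest of the 3 lymphocyte gates in all 3 SIRT7-/- mice, on genes chosen for being lower there. Every gate had less of them in SIRT7-/- than in WT mice, hepatocytes included. The 24 genes of the hepatocyte list summed in CD8 T cells to 415, 296 and 216 CP10K in WT and 356, 67.9 and 135 in SIRT7-/- mice, with Fabp1 the most abundant. Of 23 tested, 1 fell (Serpina1c, beside 0.327% of all genes) and the median log2 fold change was -1.13, or -0.07 without SIRT7-/- mouse 2.

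**Figure D4:**
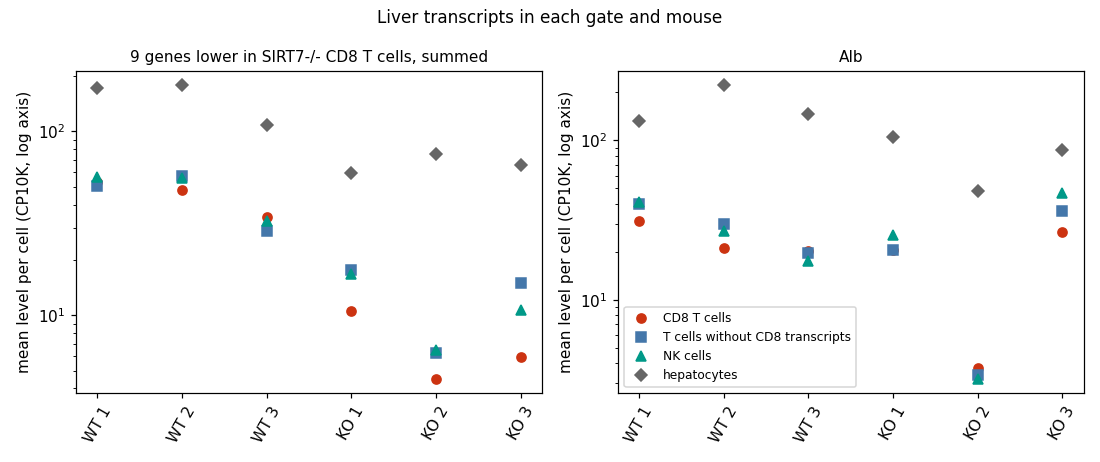
Mean level per cell (CP10K, log axis) in each mouse (KO, SIRT7-/-) of the 9 genes other than Igfbp4 that fell, summed (left), and of Alb, the albumin gene (right), with a symbol for each gate. In each mouse the 3 lymphocyte gates lie below the hepatocytes, which for Alb follows from the hepatocyte definition of 10 or more UMIs of Alb. Alb was lowest in SIRT7-/- mouse 2 in every gate.

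The test of the difference asked whether the genotype acted otherwise on CD8 T cells than on T cells without CD8 transcripts of the same mouse. Of 3064 genes 0 passed (limma, 0.0%), 98 had an unadjusted p under 0.05, and the smallest adjusted p was 0.999. Within T cells without CD8 transcripts of the same 5 mice, 3 of 3062 genes passed limma's test (0.098%). At an unadjusted p under 0.05 there were more genes than in CD8 T cells, 286 against 170. Hmgb2 differed between the gates by 0.09 ± 0.452 (SE) and Stmn1 by -0.08 ± 0.477, both less than their standard errors. Igfbp4 had the larger difference of -1.07 ± 0.356 and Ccl5 of -1.45 ± 0.438, each with a limma adjusted p of 0.999. Ccl5 in T cells without CD8 transcripts was 9.16, 11.4 and 10.0 CP10K in WT and 23.6, 29.0 and 17.4 in SIRT7-/- mice (limma adjusted p = 0.0431), a difference that was not seen in CD8 T cells, although the difference between the gates did not pass.

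Of the 22 genes of T cell receptor signaling, none of them in the rule, 20 were tested, 0 passed (0.555% of all genes did), and the median log2 fold change was 0.01. Ptprc (CD45), a phosphatase that all leukocytes carry, was its most abundant member. The MHC class I list had 17 of 18 genes tested, 0 calls and a median of 0.09, and the homing receptor list 15 of 19 tested, 0 calls and a median of 0.01. The summed level of the T cell receptor list was 67.8, 68.3 and 56.1 CP10K in WT and 52.0, 72.5 and 57.5 in SIRT7-/- mice, which overlap.

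**Figure D5:**
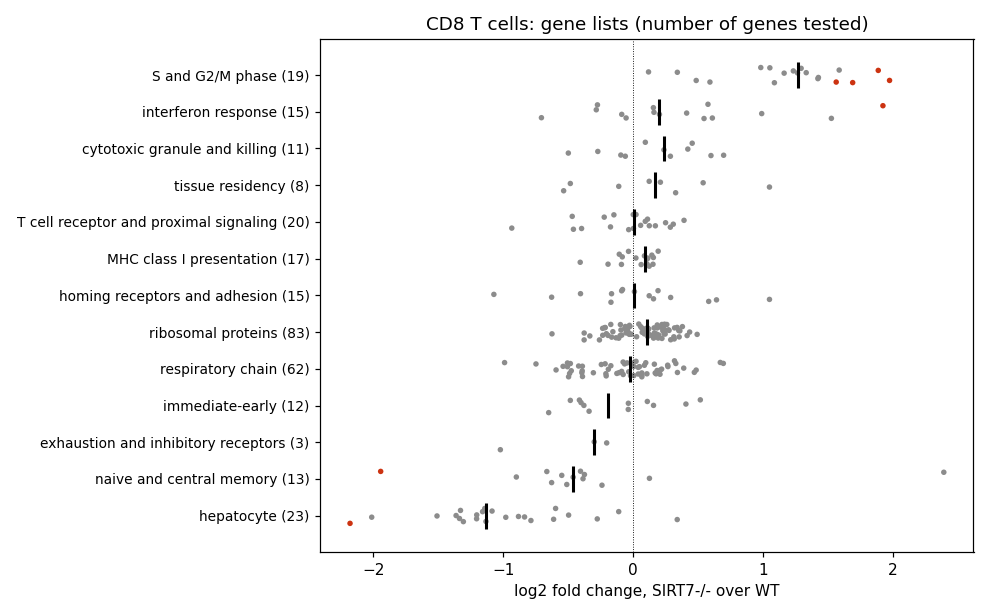
Log2 fold change (SIRT7-/- over WT) of every tested gene of 13 lists in CD8 T cells, with a bar at the median of each list, red points for genes past the threshold and the number tested in parentheses, where lists of other cell types except hepatocytes and a few others are not shown. The S and G2/M phase list has its median at 1.27 (0.80 with SIRT7-/- mouse 3 included, not shown) and the hepatocyte list at -1.13. Medians of the other lists shown lie between -0.46 and 0.24.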

How the data were processed

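The authors aligned 10x Genomics reads to the mouse transcriptome (mm10) with Cell Ranger 6.0.0 and removed cells with under 500 genes or over 5% mitochondrial transcripts and genes in under 3 cells. The deposited values are the natural log of counts per 10000 plus 1 (checked: 11610 cells sum to 10000 after back-transformation, and all 12961041 values above 0 lay within 0.02 of whole UMIs). All 16623 gene columns were used, and barcode endings gave the mouse. The members and gene lists were chosen with earlier results of these data known.

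The mean CP10K over the CD8 T cells of a mouse plus 0.5 was taken as log2 and tested with limma 3.58.1 (R 4.3.3, eBayes with trend and robust, two-sided, Benjamini-Hochberg). Log2 fold changes are on that scale and understate changes of low genes. Mice with 20 cells were planned, but no WT mouse had 20, so the planned fallback of 10 was used, also for the test between gates, where it was not planned. Simulated data for this comparison had 200 genes changed 4-fold among 3029 tested. The fit recovered 92.5% of the 200, and it called 0 genes when none was changed. The changed genes all had at least 2 CP10K, and summed UMIs were simulated with the same spread for every gene. The recovery therefore does not cover lower genes or the spread of means over cells. Single values had exact two-sided permutation tests over mice (scipy 1.17.1). The 11 tests of this kind were adjusted together, and the smallest adjusted p was 0.55, and the results of some of them and of some genes are not reported here. Separate animals are replicates. Thinning and binomial intervals cover counting error only. The scrublet caller of scanpy 1.11.5 marked 46 cells (0.396%), too few to have worked, and 0 of them were CD8 T cells, so doublets were not removed. Named genes are those of the rule, its markers, Sirt7, up to 10 called genes per direction with at least 1 CP10K, the called and 4 most abundant genes of each list, the leading 15 genes, and genes of the naive, cytotoxic, residency and exhaustion lists. Alb, Mki67, Top2a, Isg15, Xcr1, Ly6g, Camp, Ngp, Ltf and Chil3 lie outside this rule and were chosen after their values were seen.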

Additional observations from a re-analysis of the deposited data

How the results depend on the processing

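The 17 genes kept their direction under every alternative in which they could be tested. The number of genes past the threshold was 11 with a pseudocount of 0.1, 0 with a filter at 2 CP10K (660 genes tested, 51 at an unadjusted p under 0.05), 2 with UMIs summed per mouse, 5 with the mean of ln values, 14 with limma voom on summed UMIs (8 of the 17) and 11 with 3 or more UMIs in the gate. Some alternatives were chosen after seeing the data. Of these, leaving out cells with 3 or more UMIs of H2-Aa, H2-Ab1, Cd74 and Cst3 together gave 11. Leaving out cells with a UMI of Mki67, Top2a or Birc5 gave 11 (only 14 of the 17 were then tested), and all 6 mice 13, of which 1 was higher. Leaving out each mouse in turn gave 0 to 64. The cause of these differences was not tested. The difference in the share of all cells was 0.451 points, -0.767 to 1.11 without single mice and -1.12 among cells with a UMI of Ptprc. Minimums of 20 and 50 cells could not be fitted, and leaving out cells marked by scrublet removed no CD8 T cell.

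With the replicate number as a block 79 genes passed (36 higher, 43 lower) and 1 in the test between gates, and the shares differed by 0.451 and 7.93 points as before. The numbers name different animals, and deviations of same-numbered mice correlated at only 0.14 and 0.04.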

Other observations

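Some transcripts of other cell types were highest in single mice. Immunoglobulin genes were found in the CD8 T cells of SIRT7-/- mouse 2, where Igkc had 17.3 CP10K and Igha 9.72, while Igkc had 0.512, 1.18 and 5.01 in WT mice and 0.523 and 0.141 in SIRT7-/- mice 1 and 3. The plasma cell list summed to 2.14, 2.85 and 6.67 CP10K in WT and 1.31, 32.3 and 0.282 in SIRT7-/- mice, and only 4 cells held Jchain. MHC class II genes were highest in WT mouse 3, with 48.7 CP10K of Cd74.

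Housekeeping groups are given beside the 0.555% of all genes that passed. The 83 tested ribosomal protein genes had 0 calls and a median log2 fold change of 0.11, the 62 respiratory chain genes 0 calls and -0.02, and the 17 heat shock and ER chaperone genes 0 calls and -0.15. Of the immediate-early genes, which respond to dissociation, 12 were tested with 0 calls and a median of -0.19. Ribosomal transcripts summed to 2380, 2300 and 2330 CP10K in WT and 2640, 2310 and 2990 in SIRT7-/- mice. Pcyt2, an enzyme of phosphatidylethanolamine synthesis whose gene neighbors Sirt7, had 0.757, 1.91 and 0.665 CP10K in WT and 0.0, 0.138 and 0.141 in SIRT7-/- mice (limma adjusted p = 0.390).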
